A study of Mus musculus with 78 samples.

Results

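The 10 genes described here are a part of the insulin-like growth factor (IGF) and insulin system that soleus muscle transcribes. They are the ligand gene Igf1, the receptor genes Igf1r and Insr, the receptor substrate genes Irs1 and Irs2, and 5 genes of IGF binding proteins, Igfbp3, Igfbp4, Igfbp5, Igfbp6 and Igfbp7. They were taken by mouse symbol from a fixed list and make up 10 of the 36904 gene IDs in the deposited table. The rule holds no measured value, but the list was chosen with earlier results of these data known. All 10 passed the filter on low counts that left 18218 genes for testing.

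IGF1 made in the liver and in muscle itself binds the receptor encoded by Igf1r, while insulin binds the related receptor encoded by Insr. Both receptors are tyrosine kinases that phosphorylate the docking proteins encoded by Irs1 and Irs2, and these recruit PI3K and AKT, which raise glucose uptake and protein synthesis and keep FOXO transcription factors out of the nucleus. The binding proteins carry IGFs in blood and tissue and set how much ligand reaches the receptor, and in skeletal muscle the whole system is known for its part in fibre growth and in clearing glucose from the blood.

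RNA had been sequenced from soleus, a slow postural leg muscle, of C57Bl/6 mice for which the labels name no engineered allele. Females were sampled at 6 months (4 replicates), 12 months (6), 20 months (6) and 28 months (7 in batch 2 and 6 in batch 1), and males at 6 months (6), 12 months (6), 20 months (9) and 28 months (10 in batch 2 and 5 in batch 1), all on control feed. A further 12 males of 28 months in batch 2 had feed with CaAKG, calcium alpha-ketoglutarate, a salt of a TCA cycle metabolite, at 2% per their labels. Mice of 6 and 12 months came from a supplier in Singapore and mice of 20 months from the Jackson Laboratory, and the 28-month mice were brought in at 17 months from a supplier that the labels do not name, so age, supplier and cohort cannot be told apart in the comparisons of 20 or 28 months with another age. The comparison of 12 with 6 months is within 1 supplier.

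Total counts ran from 19500000 to 81600000 per library over 78 libraries, and 2 libraries of 12-month females that share an animal tag were summed, which left 77 replicates. Muscle fibre transcripts were abundant in every library, with 10 fibre markers together between 50300 and 130000 counts-per-million units (CPM), which scale each count to the size of its library. In 5 libraries, all of 6 or 12 months, the X-inactivation transcript and the Y-linked transcripts went against the sex on the label: 6-month female replicate 3, 6-month male replicate 3, 12-month female replicates 1 and 4, and 12-month male replicate 3. Another 9 libraries held over 100 CPM of keratinocyte or neutrophil transcripts: 3 of the 6 females of 28 months in batch 1, 4 CaAKG males, 1 control male of 28 months in batch 2 and 1 female of 12 months. Results were fitted with and without both sets. The libraries also differed by group in how counts depended on transcript length: the Spearman correlation across genes between a library's deviation from the mean and the length of the transcript had a median of 0.577 in 20-month females and 0.565 in 20-month males, against -0.506 in 6-month females and -0.457 in 6-month males. This trend favoured long transcripts at 20 months, and 6 of the 10 genes, Igf1, Igf1r, Insr, Irs1, Irs2 and Igfbp5, have a longest annotated transcript of over 6 kb.

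Per kilobase of its longest transcript, Igfbp7 stood highest of the 10, with a median of 58.9 CPM per kb over the 77 replicates, followed by Igfbp6 at 34.7, Igfbp5 at 28.7 and Igfbp4 at 16.2 CPM per kb. Irs2 with 10.3 and Insr with 10.1 CPM per kb lay next, then Igfbp3 with 5.87 and Irs1 with 5.51 CPM per kb, and Igf1 with 1.56 and Igf1r with 1.45 CPM per kb were the lowest. The order of Igfbp5 and Igfbp6 turned between groups: Igfbp5 had the higher mean per kb in 20-month males (42.3 CPM per kb against 32.2 for Igfbp6) and Igfbp6 in 12-month males (64.4 CPM per kb against 13.7 for Igfbp5). These groups also differed in the length trend, with medians of 0.565 at 20 months and -0.57 at 12 months. The longest transcript has 6006 bases for Igfbp5 and 1112 for Igfbp6, and the part of length in the turned order was not tested. Over the pooled replicates, the binding protein genes other than Igfbp3 were the most abundant among the 10 genes on the length scale. Within a gene, Irs2 varied most across replicates, between 8.89 and 298 CPM, and Igfbp7 least, between 37.5 and 113.1 CPM.

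Both receptor genes, Irs2 and Igfbp5 were higher at 20 than at 6 months in both sexes. With edgeR's quasi-likelihood test and Benjamini-Hochberg adjustment over all 18218 genes, Igf1r, Insr, Irs2 and Igfbp5 made 4 of 10 genes higher in females, and Igfbp6 was the 1 gene lower. Over all genes tested, 18.2% were higher and 17.8% lower in that comparison. In males 7 of the 10 genes were higher and 0 lower at 20 than at 6 months, the same 4 genes with Igf1, Igfbp3 and Igfbp7, against 22.6% higher and 22% lower over all genes. The share among long genes was larger than these backgrounds: of 2193 genes with a transcript over 6 kb, 62.0% were higher in females and 68% in males, so that 4 of 6 long members in females and 5 of 6 in males lay near the share of long genes in general. The median log2 fold change of the 10 genes was 0.62 in females and 0.91 in males, against 0.00 and 0.02 over all genes and 0.84 and 0.83 over the genes with long transcripts. At 28 against 6 months, Igf1r was higher and Igfbp6 lower in females, where 9.91% of all genes were higher and 9.04% lower. In males Igf1r and Igfbp3 were higher, where 6.76% of all genes were higher and 9.38% lower. At 28 against 20 months 2 genes were lower in females, Igf1 and Insr, where 17.3% of all genes were higher and 12.6% lower, and 3 were lower in males, Igf1r, Insr and Igfbp5, where 8.25% were higher and 8.78% lower. All of these are long genes, and 44.1% of genes over 6 kb were lower in females and 41.6% in males, so that 2 of 6 and 3 of 6 long members lay near the share of long genes. At 12 against 6 months in males Igfbp6 was higher and Irs1 lower, where 3.02% of all genes were higher and 6.82% lower.

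**Figure D1:**
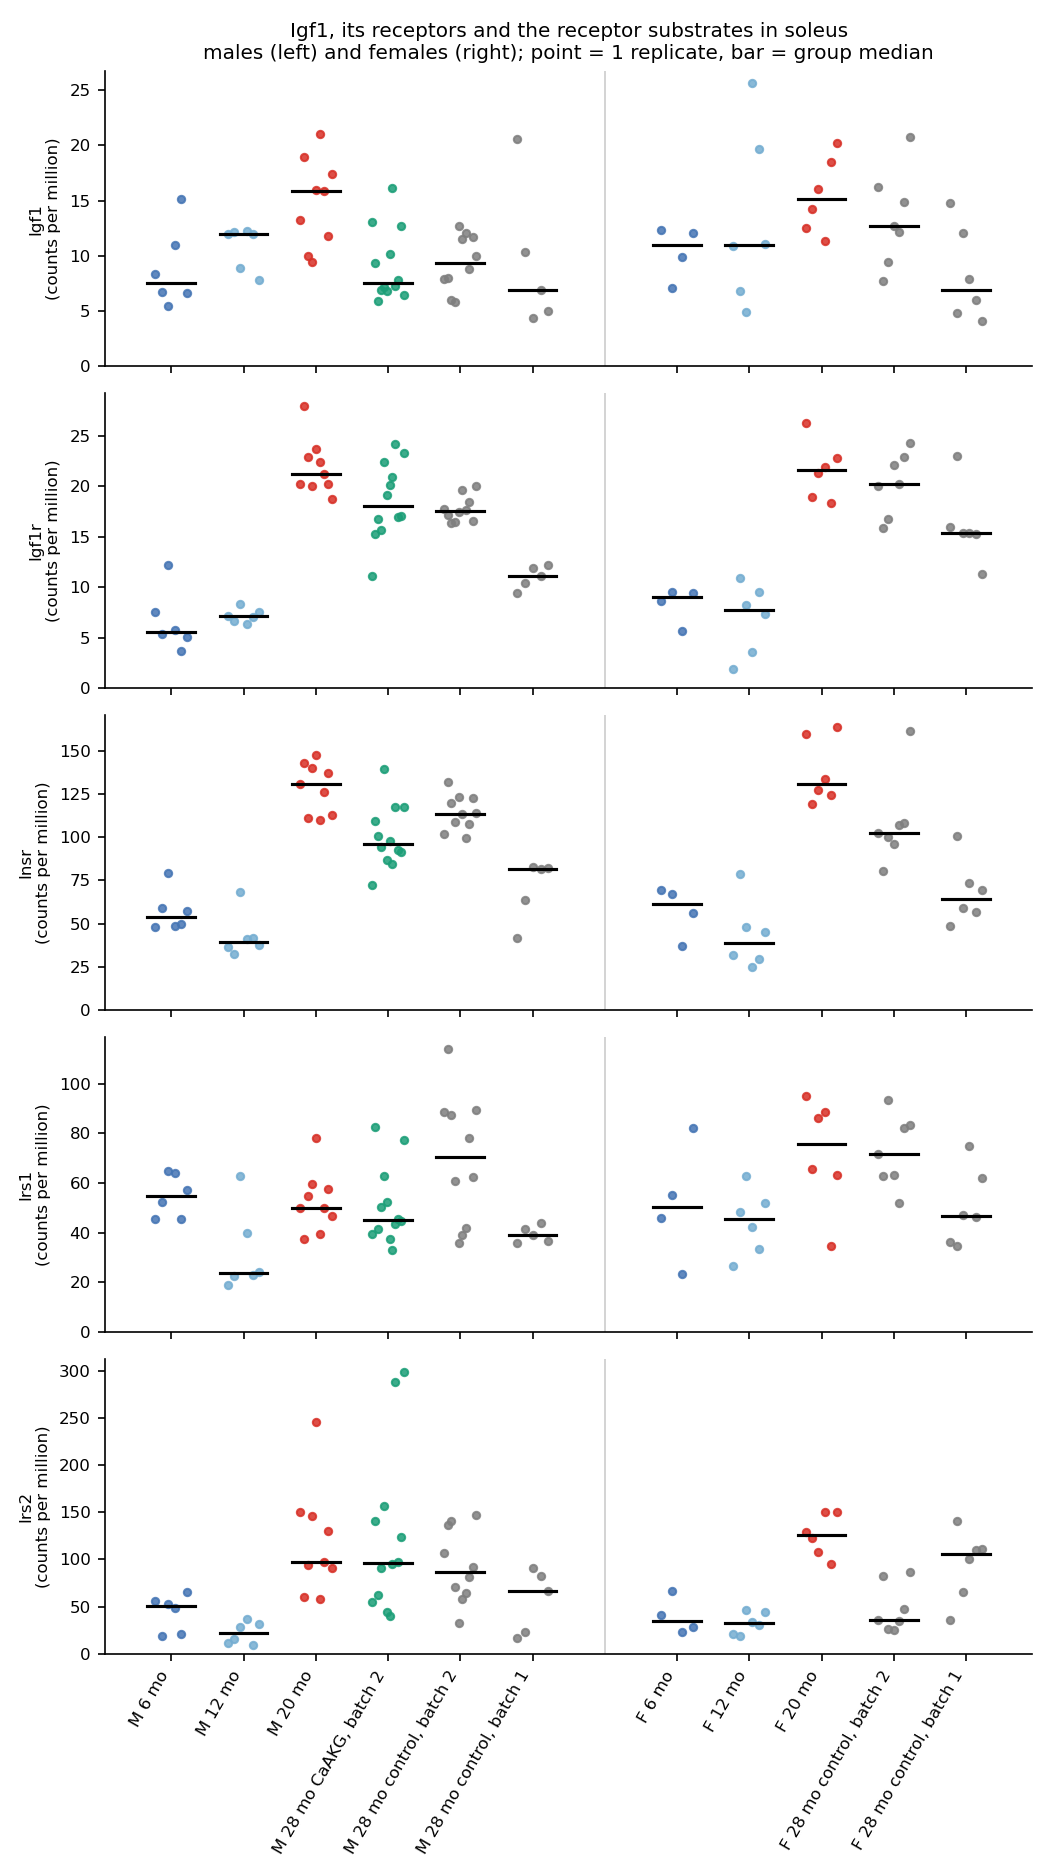
CPM values of Igf1, Igf1r, Insr, Irs1 and Irs2 (vertical axes, from 0) in each replicate (points) with the group median (bar), by age, feed and batch, males left and females right. The medians of Igf1r and Insr lie highest at 20 months in both sexes, with Igf1r between 18.3 and 27.9 CPM there, while Irs2 spreads up to 298 CPM in CaAKG males.

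Igf1, the ligand gene (chromosome 10, 87858265 to 87937042, + strand, mm10), was among the least abundant of the 10, with 4.07 to 25.6 CPM across replicates. In females it measured a lowest, median and highest value of 11.4, 15.1 and 20.2 CPM at 20 months, against 12.3, 7.12, 9.92 and 12.1 CPM in the 4 females of 6 months. The groups overlapped, and the log2 difference of 0.59 (SE 0.35) did not pass (adjusted p = 0.197). This female difference passed with limma-voom (log2 0.81, adjusted p = 0.00294) and with only the compared groups fitted (0.57, adjusted p = 0.0243). With transcript length and GC content as offsets it was -0.08 (adjusted p = 0.911). In males Igf1 measured 9.43, 15.9 and 21.03 CPM at 20 months (lowest, median, highest) and 5.43, 7.50 and 15.1 CPM at 6 months. Of the 9 males of 20 months, 5 lay above every male of 6 months, and Igf1 rose by 0.74 on the log2 scale (SE 0.29, adjusted p = 0.0284). That call was lost without 6-month male replicate 1, 2, 3 or 6 or 20-month male replicate 6 (adjusted p 0.0542 to 0.103), and the log2 fold change was 0.01 (adjusted p = 0.993) once transcript length and GC content entered the fit as offsets.

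At 28 months in batch 1, Igf1 measured 4.07, 6.93 and 14.8 CPM in females, against 11.4, 15.1 and 20.2 CPM in females of 20 months. It fell in this comparison by 0.91 on the log2 scale (SE 0.31, adjusted p = 0.0196), with 4 of 6 females below every female of 20 months. Leaving out 28-month female replicate 9, 12 or 13 ended the call (adjusted p 0.0535 to 0.0686), and with the length and GC offsets the log2 fold change was -0.41 (adjusted p = 0.411). Females of 28 months in batch 2 measured 7.71, 12.7 and 20.7 CPM and were not compared with 20 months. Against batch 1 their log2 difference was 0.70 (adjusted p = 0.0846), and 1.26 (adjusted p = 0.0132) without the skin and marrow libraries. In males of 28 months in batch 1 the 5 values were 20.6, 10.4, 4.39, 6.92 and 5.04 CPM, and the comparison with 20 months gave a log2 difference of -0.64 (SE 0.30, adjusted p = 0.144). The single value of 20.6 CPM, male replicate 11, weighed on this: without it the log2 fold change was -1.16 (adjusted p = 0.0118). Igf1 tracked the summed fibroblast markers across the 77 replicates (Spearman rho 0.816, a description over libraries that share depth and tissue composition). The 12 fibroblast markers, all tested, summed to 1770 to 2240 CPM in 20-month females and 1560 to 2500 CPM in 20-month males, against 947 to 2030 CPM in 6-month females and 895 to 1450 CPM in 6-month males. Of these markers 1 was higher in females, and 3 were higher and 1 lower in males, so most did not pass. Their part in the Igf1 result was not tested, and in bulk tissue fewer cells of a type and less RNA per cell cannot be told apart.

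Igf1r, which encodes the IGF1 receptor (chromosome 7, 67952827 to 68233668, + strand), separated 20-month mice from 6-month mice in both sexes. Females of 20 months measured 18.3, 21.6 and 26.3 CPM (lowest, median, highest), against 8.66, 9.51, 5.67 and 9.39 CPM in the 4 females of 6 months. Males of 20 months measured 18.7, 21.2 and 27.9 CPM, against 3.69, 5.53 and 12.2 CPM in males of 6 months. No value overlapped in either sex: Igf1r was 2.60-fold higher in females (log2 1.38, SE 0.24, adjusted p = 2.11e-06) and 3.31-fold higher in males (log2 1.73, SE 0.20, adjusted p = 2.81e-11). With the length and GC offsets the log2 fold change was 0.79 (SE 0.15, adjusted p = 1.58e-05) in males and 0.40 (SE 0.18, adjusted p = 0.116) in females. The highest male of 6 months, 12.2 CPM, and the lowest female of 6 months, 5.67 CPM, were the libraries whose sex transcripts went against their labels. Without all 14 doubted libraries the log2 fold change was 1.99 (adjusted p = 1.33e-15) in males and 1.23 (adjusted p = 4.28e-07) in females.

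At 28 months in batch 1, Igf1r measured 11.3, 15.4 and 22.98 CPM in females and 9.44, 10.4, 11.9, 11.1 and 12.2 CPM in the 5 males. All 6 females stood above every female of 6 months, a 1.93-fold higher level (log2 0.95, SE 0.23, adjusted p = 0.00306), and this call held with the length and GC offsets; it did not hold when the females of 28 and 6 months alone were fitted (adjusted p = 0.0909). The 5 males of 28 months lay above all males of 6 months but 1, replicate 3 at 12.2 CPM, a library against its sex label, and the next highest male of 6 months had 7.57 CPM. The log2 difference was 0.73 (SE 0.21, adjusted p = 0.0121), and 0.99 (adjusted p = 7.3e-06) once the sex-label libraries were left out. Without 6-month male replicate 5 that call was lost (log2 0.60, adjusted p = 0.0598), as it was with only the compared groups fitted (0.74, adjusted p = 0.0515) and with the offsets (0.38, adjusted p = 0.139). Against 20 months, all 5 males of 28 months lay below every male of 20 months and Igf1r fell by 1.00 on the log2 scale (SE 0.20, adjusted p = 0.000292), a call lost with the offsets (log2 -0.41, adjusted p = 0.133). In females the same comparison gave a log2 difference of -0.43 (SE 0.20, adjusted p = 0.0953), with -0.55 (adjusted p = 0.0374) without 28-month female replicate 9 and 0.14 (adjusted p = 0.602), the opposite direction, with the offsets.

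Insr, which encodes the insulin receptor (chromosome 8, 3122061 to 3279617, - strand), also had its highest batch 1 medians at 20 months in both sexes. Females of 20 months measured 119, 131 and 164 CPM, against 69.2, 66.9, 37.2 and 56.2 CPM in females of 6 months. In males Insr measured 110.3, 131 and 148 CPM at 20 months, against 48.2, 53.6 and 79.3 CPM at 6 months. The groups did not overlap, and Insr was 2.41-fold higher in females (log2 1.27, SE 0.21, adjusted p = 1.19e-06) and 2.26-fold higher in males (log2 1.18, SE 0.17, adjusted p = 2.63e-08). Under the length and GC offsets neither comparison passed: the log2 fold change was 0.36 (adjusted p = 0.12) in females and 0.28 (adjusted p = 0.108) in males. At 28 months in batch 1 Insr measured 48.5, 64.1 and 100.6 CPM in females and 41.7, 63.9, 82.6, 81.5 and 82.4 CPM in males, all below every mouse of 20 months of their sex. It fell relative to 20 months by 1.02 on the log2 scale in females (SE 0.18, adjusted p = 2.28e-05) and by 0.87 in males (SE 0.18, adjusted p = 0.000377). The female call held with the offsets at -0.44 and the male log2 fold change became -0.34 (adjusted p = 0.192). Against 6 months the 28-month levels gave 0.24 (adjusted p = 0.418) in females and 0.30 (adjusted p = 0.304) in males.

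Endothelial markers and smooth muscle and pericyte markers moved with the receptors. Of the 14 endothelial markers, all tested, 12 were higher and 1 lower at 20 than at 6 months in females and 12 were higher in males, and they summed to 676 to 840 CPM in 20-month females and 705 to 914 CPM in 20-month males, against 218 to 467 CPM in 6-month females and 196 to 341 CPM in 6-month males. Of the 10 smooth muscle and pericyte markers, 7 were higher in females and 9 in males. Across the 77 replicates Igf1r followed the endothelial sum with a Spearman rho of 0.85 and Insr with 0.82, and the length trend of the libraries with 0.866 and 0.893. With the smooth muscle and pericyte sum rho was 0.796 and 0.806. Lower were the sums for keratinocytes, neutrophils, fibroblasts, tendon, macrophages, adipocytes, satellite cells and muscle fibres. Their rho ran from -0.408 to 0.492 with Igf1r and from -0.48 to 0.395 with Insr. At 28 against 20 months, where the receptors were lower, 8 of 14 endothelial markers were lower in females and 7 in males, and 7 of 10 smooth muscle and pericyte markers were lower in females and 4 in males. In the same comparison all 12 keratinocyte and all 14 neutrophil markers were higher in females, and 0 of either passed in males. All are descriptions over the same libraries, and the part of the marker genes in the receptor result was not tested.

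**Figure D2:**
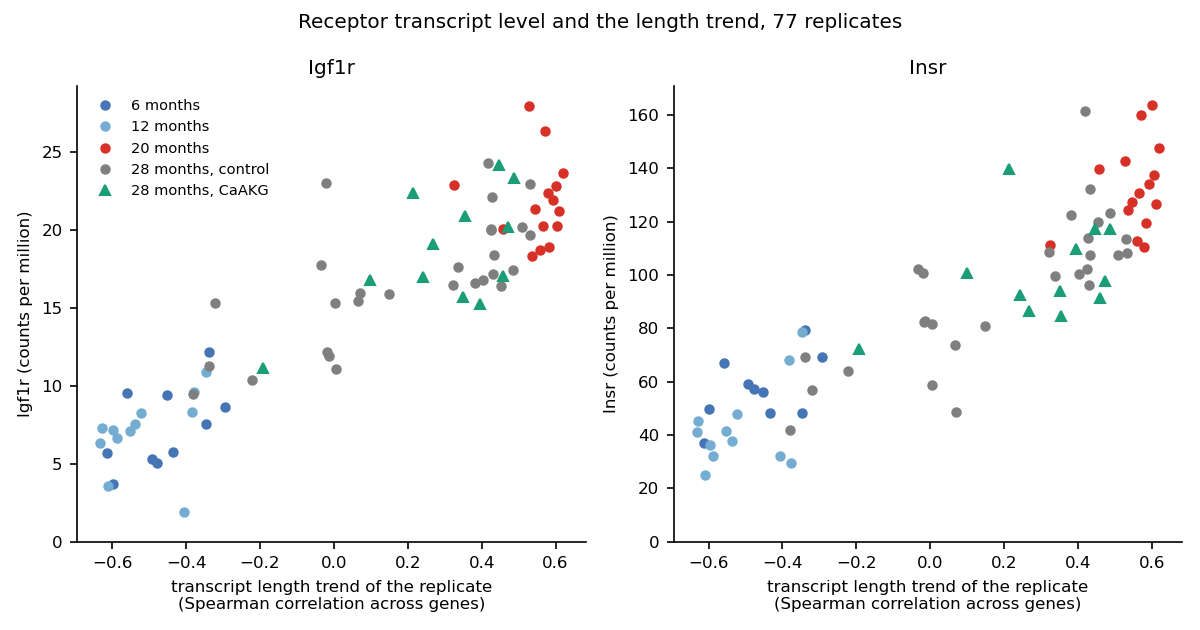
Igf1r (left) and Insr (right) in CPM (vertical axes, from 0) against the transcript length trend of each of the 77 replicates, coloured by age and feed. The 20-month replicates lie at high values of the trend (medians 0.577 and 0.565) and the 6-month replicates at low ones (medians -0.506 and -0.457), and both receptors lie higher where the trend is higher.

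Irs1, which encodes a docking protein of the insulin receptor in muscle (chromosome 1, 82233101 to 82291416, - strand), did not share this pattern in males. It measured 37.5, 49.9 and 78.3 CPM in males of 20 months and 45.4, 54.8 and 64.9 CPM in males of 6 months, and the log2 fold change was -0.06 (SE 0.23, adjusted p = 0.865). Irs1 thus stood against a median log2 fold change of 0.83 among male genes with transcripts over 6 kb, and with the length and GC offsets it was lower at 20 months by a log2 difference of -0.95 (SE 0.23, adjusted p = 0.000538). In females it measured 34.6, 75.8 and 94.9 CPM at 20 months, against 45.8, 55.0, 23.4 and 82.4 CPM at 6 months (log2 0.49, SE 0.29, adjusted p = 0.199; 0.80 and adjusted p = 0.0428 without 6-month female replicate 4). At 12 months males measured 18.8, 23.6 and 62.9 CPM, and 5 of 6 lay below every male of 6 months. Irs1 fell there by 0.79 on the log2 scale (SE 0.26, adjusted p = 0.0377). The 12-month male at 62.9 CPM was replicate 3, a library against its sex label. The call was lost on leaving out any of 7 single libraries (12-month male replicates 1, 2, 5 and 6 and 6-month male replicates 3, 4 and 6, adjusted p 0.0599 to 0.118). At 28 months in batch 1 males measured 35.9, 41.5, 39.0, 43.7 and 36.6 CPM, all below every male of 6 months, with a log2 fold change of -0.48 that did not pass (SE 0.27, adjusted p = 0.239). This comparison passed with only the compared groups fitted (log2 -0.47, adjusted p = 0.0139) and with the length and GC offsets (log2 -0.85, adjusted p = 0.0282).

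Irs2, the second substrate gene (chromosome 8, 10984681 to 11008458, - strand), is in liver a known target of FOXO factors that insulin turns down. Females of 20 months measured 94.9, 126 and 150 CPM, against 41.4, 66.2, 23.1 and 27.8 CPM in females of 6 months, with no overlap. Males of 20 months measured 58.2, 97.3 and 245 CPM, against 18.6, 50.6 and 65.4 CPM in males of 6 months, and 7 of 9 lay above every male of 6 months. Irs2 was 3.16-fold higher in females (log2 1.66, SE 0.49, adjusted p = 0.00495) and 2.73-fold higher in males (log2 1.45, SE 0.40, adjusted p = 0.00176). Its standard errors were the largest of the 10 genes in these comparisons. Both calls held without each library in turn, and neither passed with the length and GC offsets (log2 1.07 and adjusted p = 0.117 in females, 0.85 and adjusted p = 0.0917 in males). At 28 months in batch 1 Irs2 measured 35.9, 105 and 140 CPM in females and 16.2, 23.3, 91.0, 81.8 and 66.0 CPM in males. Replicates 11 and 12 lay below the other males of 28 months, and neither 28-month comparison with 6 months passed (log2 1.24 and adjusted p = 0.0603 in females, 0.35 and adjusted p = 0.665 in males). The female comparison passed without 28-month female replicate 8, a library with skin transcripts (log2 1.40, adjusted p = 0.0416), or without 6-month female replicate 2 (log2 1.61, adjusted p = 0.0413).

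Promoters are shown for Igf1r, Irs2 and Igfbp5, which were higher at 20 months in both sexes, and for Irs1, which was not. RefSeq promoters of build GRCm38.p6, 250 bases before to 50 after the gene start, were at hand for 9 of the 10 genes. Insr has no entry. RefSeq starts can lie apart from the GENCODE M21 gene coordinates given above. Each runs 5′ to 3′ on the strand of its gene, and capitals mark GC boxes (GGGCGG, the core bound by Sp1) and the insulin response letters TGTTTT, searched on both strands.
Igf1r, chr7:67952007-67952306, + strand: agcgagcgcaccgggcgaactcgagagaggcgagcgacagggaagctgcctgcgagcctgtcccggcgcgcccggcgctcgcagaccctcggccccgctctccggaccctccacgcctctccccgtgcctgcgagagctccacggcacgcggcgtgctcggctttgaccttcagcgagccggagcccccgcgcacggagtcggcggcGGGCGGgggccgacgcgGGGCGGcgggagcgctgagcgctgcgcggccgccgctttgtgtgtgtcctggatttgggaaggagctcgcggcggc
Irs2, chr8:11008880-11009179, - strand: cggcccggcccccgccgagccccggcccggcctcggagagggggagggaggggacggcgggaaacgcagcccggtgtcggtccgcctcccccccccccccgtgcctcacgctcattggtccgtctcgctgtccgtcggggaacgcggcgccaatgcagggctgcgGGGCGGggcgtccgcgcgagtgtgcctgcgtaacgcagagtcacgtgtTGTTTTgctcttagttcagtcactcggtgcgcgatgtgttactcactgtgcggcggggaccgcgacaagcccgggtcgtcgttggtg
Igfbp5, chr1:72874816-72875115, - strand: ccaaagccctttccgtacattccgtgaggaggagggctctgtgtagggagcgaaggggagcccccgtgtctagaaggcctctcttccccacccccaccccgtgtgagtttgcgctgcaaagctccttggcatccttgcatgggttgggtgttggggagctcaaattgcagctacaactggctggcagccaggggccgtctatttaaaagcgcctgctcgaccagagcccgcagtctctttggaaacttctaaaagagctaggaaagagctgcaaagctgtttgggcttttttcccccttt
Irs1, chr1:82291390-82291689, - strand: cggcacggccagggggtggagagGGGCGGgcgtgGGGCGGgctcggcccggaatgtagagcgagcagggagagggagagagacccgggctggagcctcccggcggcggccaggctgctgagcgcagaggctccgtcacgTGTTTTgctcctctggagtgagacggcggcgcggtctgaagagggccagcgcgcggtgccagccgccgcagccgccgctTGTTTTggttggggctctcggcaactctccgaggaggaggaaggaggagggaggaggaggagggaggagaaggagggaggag
GC boxes were found in the promoters of Igf1r, Irs1, Irs2 and Igfbp7 and in 35.9% of 27018 promoters of the table, 1 per gene. The letters TGTTTT were in those of Irs1 and Irs2 and in 22.3% of all. The forkhead letters GTAAACA were in 0 of the 9 promoters and in 3.55% of all, and the TATA letters TATAAA were in those of Igfbp4 and Igfbp6 and in 14.2% of all. Irs1 and Irs2 carried the same kinds of match and differed in their values at 20 months. A match is a description of the letters in this window.

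**Figure D3:**
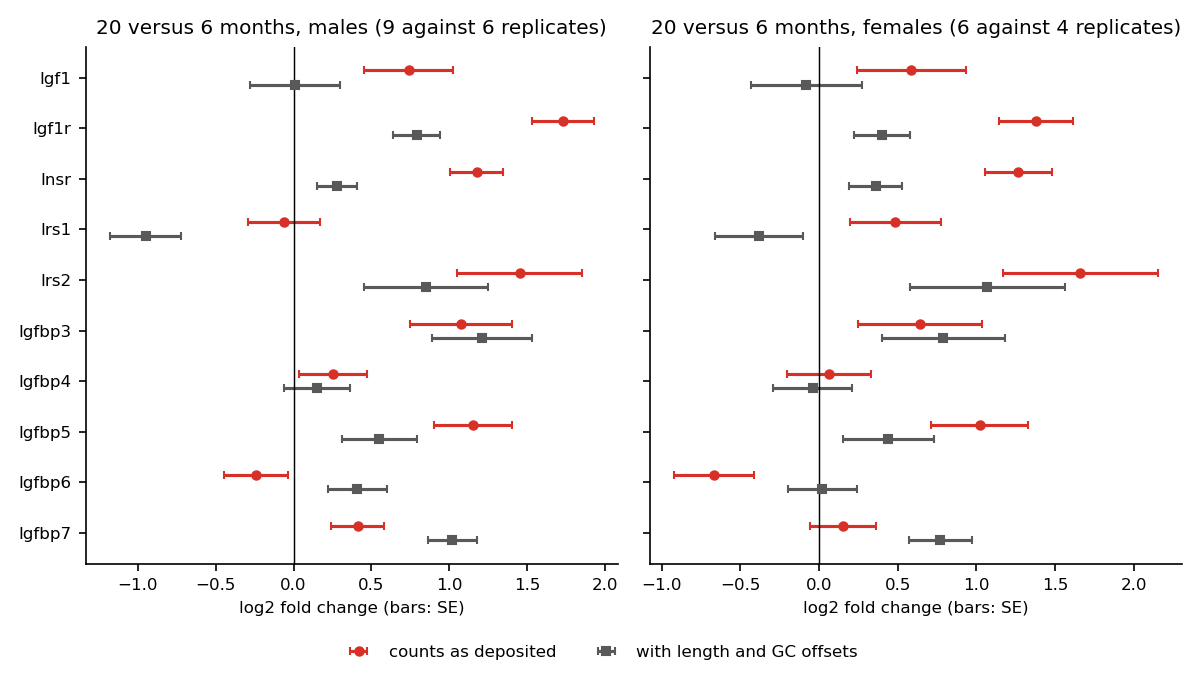
Log2 fold change at 20 versus 6 months for the 10 genes (horizontal axes, bars are standard errors), males left and females right, from the counts as deposited (circles) and with transcript length and GC content as offsets (squares). The long genes Igf1r (1.73 and 0.79 in males) and Insr (1.18 and 0.28) move toward 0 with the offsets, Irs1 moves below it (-0.95 in males), and the short genes Igfbp6 and Igfbp7 move up.

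**Figure D4:**
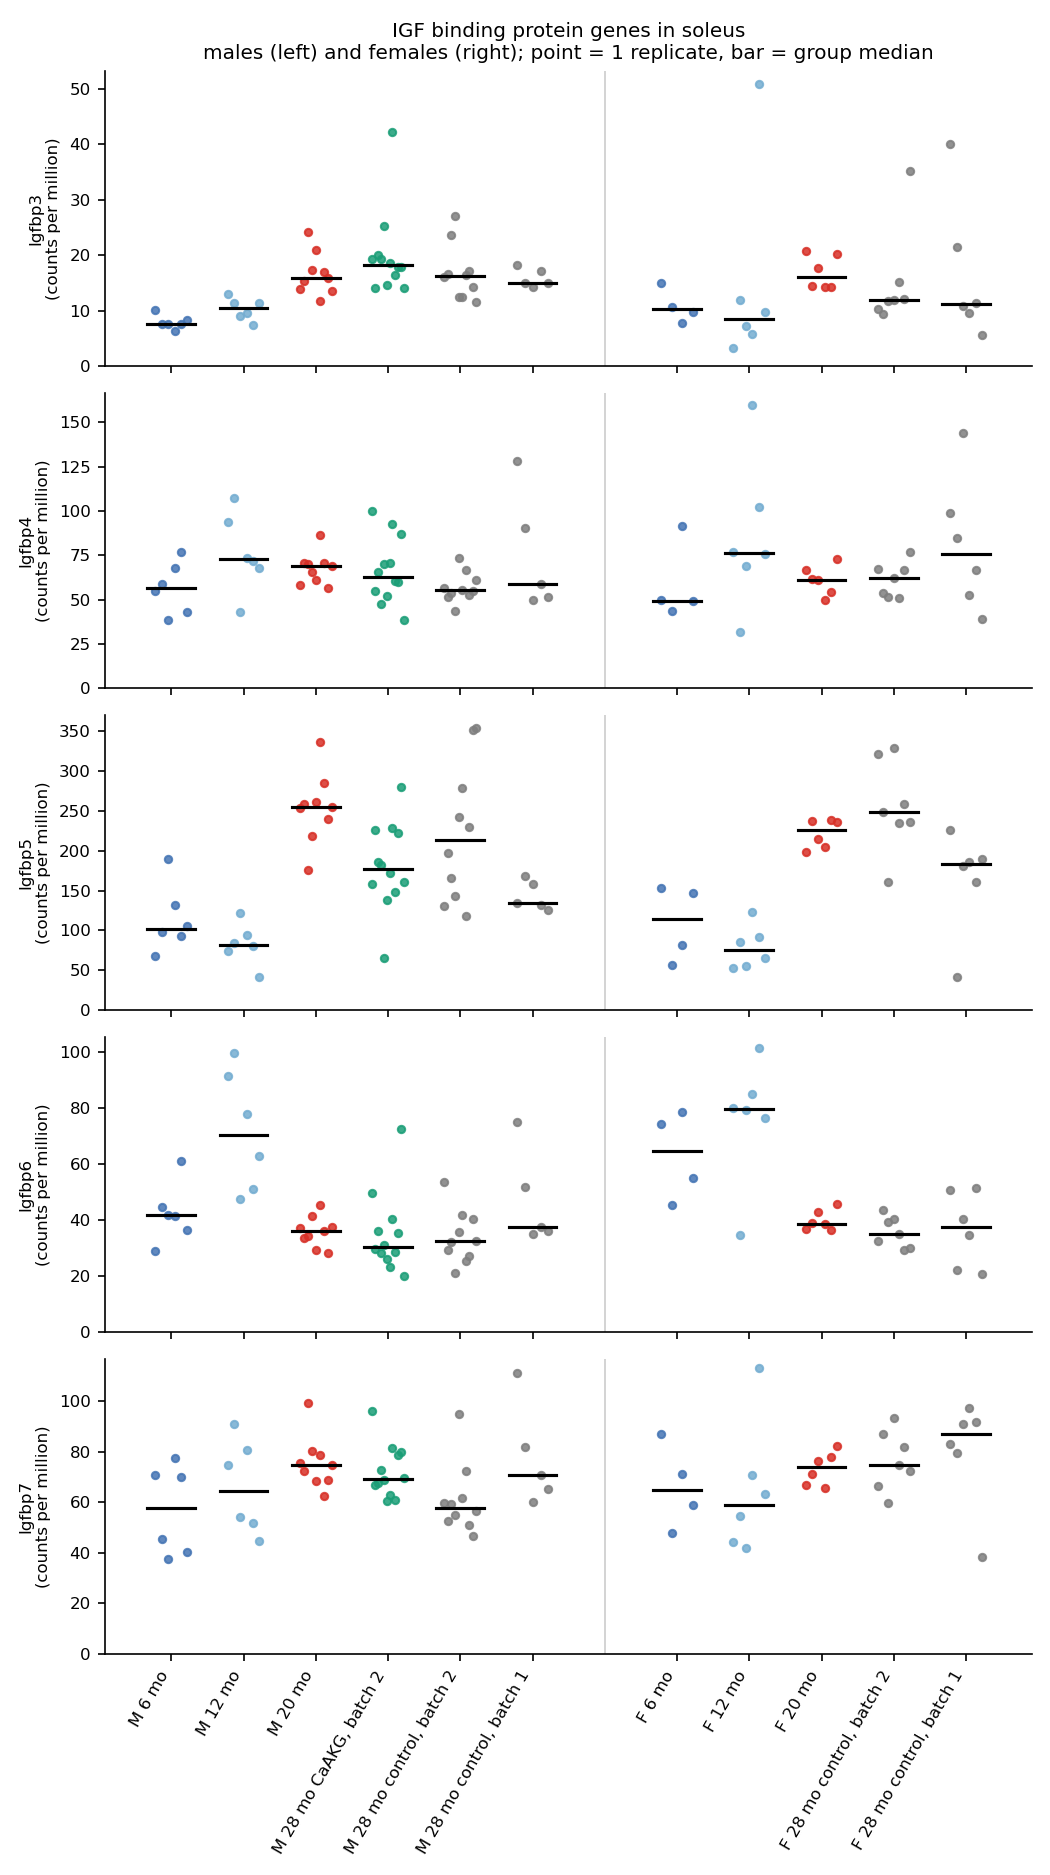
CPM values of Igfbp3, Igfbp4, Igfbp5, Igfbp6 and Igfbp7 (vertical axes, from 0) in each replicate (points) with the group median (bar), by age, feed and batch, males left and females right. Igfbp5 lies high at 20 months (medians 255.2 CPM in males and 226 in females) and Igfbp6 high at 12 months (medians 70.3 and 79.6 CPM).

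Igfbp3, which encodes the main carrier of IGFs in serum (chromosome 11, 7206086 to 7213923, - strand), was higher in older males. Males of 20 months measured 11.7, 15.9 and 24.2 CPM and males of 28 months in batch 1 measured 18.3, 15.0, 14.3, 17.1 and 15.0 CPM, against 6.30, 7.61 and 10.1 CPM in males of 6 months, with no overlap at either age. The difference was 2.10-fold at 20 months (log2 1.07, SE 0.33, adjusted p = 0.00506), and it held with the length and GC offsets (log2 1.21, adjusted p = 0.00206). At 28 months it was 2.02-fold (log2 1.01, SE 0.37, adjusted p = 0.0455). The 28-month call was lost on leaving out any of the 11 libraries of that comparison (adjusted p 0.0515 to 0.103), with log2 fold changes between 0.91 and 1.05. Females of 20 months measured 14.2, 16.1 and 20.7 CPM, against 15.0, 10.7, 7.79 and 9.84 CPM in females of 6 months (log2 0.64, SE 0.39, adjusted p = 0.213). This female comparison passed with limma-voom (log2 0.63, adjusted p = 0.0105) and with only the compared groups fitted (log2 0.63, adjusted p = 0.0112). The highest Igfbp3 values of the series, 50.8 CPM in a 12-month female, 42.2 CPM in a CaAKG male and 39.96 CPM in a 28-month female of batch 1, were in libraries with 3389, 5565 and 8467 CPM of keratinocyte markers.

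Igfbp4, which encodes a binding protein that mainly holds IGF away from its receptor (chromosome 11, 99041244 to 99054392, + strand), passed in none of the comparisons between ages. Its group medians lay between 49.4 CPM in 6-month females and 76.1 CPM in 12-month females, and single values between 31.8 and 160 CPM, both in 12-month females. The largest differences by age were at 12 against 6 months, with a log2 fold change of 0.55 (95% interval 0.02 to 1.08, adjusted p = 0.334) in females and 0.43 (-0.04 to 0.90, adjusted p = 0.28) in males. At 28 against 6 months the female log2 difference of 0.47 (SE 0.27, adjusted p = 0.209) passed only without the libraries against their sex label (log2 0.78, adjusted p = 0.0468), 1 of which was the 6-month female with the highest value of her group, 91.4 CPM.

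Igfbp5, which encodes a binding protein induced as myoblasts differentiate (chromosome 1, 72857932 to 72874884, - strand), rose at 20 months. Females of 20 months measured 198, 226 and 238 CPM, against 153, 56.02, 81.8 and 147 CPM in females of 6 months, with no overlap. Males of 20 months measured 176, 255.2 and 337 CPM, against 68.04, 102 and 189 CPM in males of 6 months, and 8 of 9 lay above every male of 6 months. Igfbp5 was 2.03-fold higher in females (log2 1.02, SE 0.31, adjusted p = 0.00586; 0.79 and adjusted p = 0.06 without 6-month female replicate 2) and 2.22-fold higher in males (log2 1.15, SE 0.25, adjusted p = 9.92e-05). With the length and GC offsets the log2 fold changes were 0.44 (adjusted p = 0.323) and 0.55 (adjusted p = 0.0663). Males of 28 months in batch 1 measured 135, 168, 158, 132 and 126 CPM, all below every male of 20 months, and Igfbp5 fell there by 0.82 on the log2 scale (SE 0.27, adjusted p = 0.0232). This call was lost without 28-month male replicate 11, 14 or 15 (adjusted p 0.0529 to 0.0608) and with the offsets (log2 -0.48, adjusted p = 0.35). Females of 28 months in batch 1 measured 41.3, 184 and 226 CPM, and their comparison with 20 months gave -0.43 (SE 0.27, adjusted p = 0.224).

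Igfbp6, which encodes a binding protein that prefers IGF2 (chromosome 15, 102144362 to 102149511, + strand), is 1 of the 2 short genes of the list, with a longest transcript of 1112 bases. In females it measured 36.2, 38.6 and 45.6 CPM at 20 months and 20.7, 37.4 and 51.2 CPM at 28 months in batch 1, against 74.2, 45.3, 78.3 and 55.1 CPM at 6 months. It fell at both ages, by 0.67 on the log2 scale at 20 months (SE 0.25, adjusted p = 0.0305) and by 0.79 at 28 months (SE 0.25, adjusted p = 0.0212). With the offsets the difference at 20 months was 0.02 (adjusted p = 0.972) and that at 28 months -0.56 (adjusted p = 0.079), and of 1515 genes with a longest transcript of 1 to 1.5 kb 38.0% were lower at 20 months in females. The call at 20 months was also lost without 6-month female replicate 1 or 3 or 20-month female replicate 1, 2 or 5 (adjusted p 0.0524 to 0.13). That at 28 months was lost without 6-month female replicate 1 or 3 or 28-month female replicate 9 (adjusted p 0.0515 to 0.114). It was also lost with limma-voom (log2 -0.55, adjusted p = 0.139) and with only the compared groups fitted (adjusted p = 0.133). Leaving out all libraries against their sex label ended both female calls (log2 -0.56 and adjusted p = 0.121 at 20 months, -0.66 and adjusted p = 0.101 at 28 months). In males Igfbp6 measured 47.5, 70.3 and 99.4 CPM at 12 months, against 28.8, 41.6 and 60.9 CPM at 6 months. It was 1.69-fold higher (log2 0.76, SE 0.23, adjusted p = 0.0233), with 4 of 6 males of 12 months above every male of 6 months. The male call was lost without 12-month male replicate 1 or 2 or 6-month male replicate 1 or 6 (adjusted p 0.0505 to 0.0976), and 4 of 12 fibroblast markers were higher in the same comparison, whose part was not tested.

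Igfbp7, which encodes a secreted protein with low affinity for IGFs that vessel walls make (chromosome 5, 77349240 to 77408041, - strand), passed in 1 comparison. Males of 20 months measured 62.7, 74.9 and 99.4 CPM, against 37.5, 57.8 and 77.4 CPM in males of 6 months, and the log2 fold change was 0.41 (SE 0.17, adjusted p = 0.0459). Only 3 of 9 males lay above every male of 6 months, and leaving out any of 9 of the 15 libraries ended the call (20-month male replicates 1, 3, 4, 5, 6 and 9 and 6-month male replicates 2, 3 and 6, adjusted p 0.0533 to 0.209). In females the values were 65.6, 73.95 and 82.5 CPM at 20 months, against 86.9, 47.8, 71.1 and 59.01 CPM at 6 months (log2 0.15, SE 0.21, adjusted p = 0.637). With the length and GC offsets Igfbp7, whose longest transcript has 1200 bases, was higher at 20 months in both sexes (log2 1.02 and adjusted p = 7.65e-07 in males, 0.77 and adjusted p = 0.00282 in females).

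At 12 against 6 months females showed 0 of the 10 genes past the threshold with edgeR, limma-voom and DESeq2, and 0.231% of all genes passed. Insr and Igfbp4 reached an unadjusted p under 0.05 there (Insr log2 -0.41, 95% interval -0.81 to -0.02, adjusted p = 0.333). Insr passed without 12-month female replicate 2 (log2 -0.68, adjusted p = 0.0308). In males Insr gave -0.41 (adjusted p = 0.148), and it passed without 12-month male replicate 3 (log2 -0.59, adjusted p = 0.0187), without all libraries against their sex label (-0.51, adjusted p = 0.0301), without both doubted sets (-0.50, adjusted p = 0.0154) and with limma-voom (-0.53, adjusted p = 0.00341). With the offsets it was -0.26 (adjusted p = 0.303). The comparisons of 28 with 20 months share their 20-month mice with those of 20 with 6 months, so the higher values in the one and the lower values in the other are not separate evidence.

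No difference between the sexes in the change with age passed for the 10 genes. The interaction of sex and age at 20 months (change in males minus change in females) passed for 0 genes of the list and 0.0% of all genes with edgeR, and 844 of 18218 had an unadjusted p under 0.05. At 28 months it passed for 0 of the 10 and for 0.329% of all genes. The largest value there was that of Igfbp6, with a log2 difference of 0.94 (adjusted p = 0.217), and it passed with the 9 skin and marrow libraries left out (log2 1.39, adjusted p = 0.0328). In direct comparisons of males with females, none of the 10 genes passed at 20 months, where 0.22% of all genes did, or at 28 months in batch 2, where 1.3% did. The largest difference was that of Irs2 at 28 months, with 32.4, 86.2 and 147 CPM in males and 25.3, 35.4 and 86.8 CPM in females (log2 0.94, 95% interval 0.23 to 1.66, adjusted p = 0.202). Irs2 (log2 1.35, adjusted p = 0.00221) and Igfbp7 (log2 -0.42, adjusted p = 0.0125) passed in that comparison with limma-voom and quality weights. In batch 1 at 28 months the order of the sexes was the other way for Irs2. Its medians there were 105 CPM in females and 66.0 CPM in males, and this difference was not tested.

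CaAKG in the feed was compared with control feed in 28-month males of batch 2, 12 against 10 mice, the only comparison here between mice of the same cohort that were randomized. None of the 10 genes passed with edgeR, limma-voom or DESeq2, and 0.0659% of all genes did with edgeR. The gene nearest to the threshold was Irs1, with 32.9, 45.1 and 82.6 CPM in CaAKG males and 35.8, 70.3 and 114 CPM in control males, and 1 CaAKG male lay below every control. Its log2 fold change was -0.46 (95% interval -0.82 to -0.09, unadjusted p = 0.0181 from the edgeR fit, adjusted p = 0.61). Igf1r measured 11.1, 18.1 and 24.1 CPM with CaAKG and 16.4, 17.5 and 20.0 CPM without (log2 0.06, 95% interval -0.23 to 0.36), and Insr 72.2, 96.0 and 140 CPM with CaAKG and 99.7, 114 and 132 CPM without (log2 -0.19, -0.45 to 0.07). For Igf1r 5 CaAKG males lay above every control and 3 below, and for Insr 1 lay above and 7 below. Igf1 gave -0.05 (-0.49 to 0.40). Irs2 spread widest, at 40.4, 96.1 and 298 CPM with CaAKG and 32.4, 86.2 and 147 CPM without (log2 0.42, -0.19 to 1.03), and 3 CaAKG males lay above every control. The 5 binding protein genes lay between -0.29 for Igfbp5 (-0.68 to 0.10) and 0.26 for Igfbp3 (-0.25 to 0.76).

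**Figure D5:**
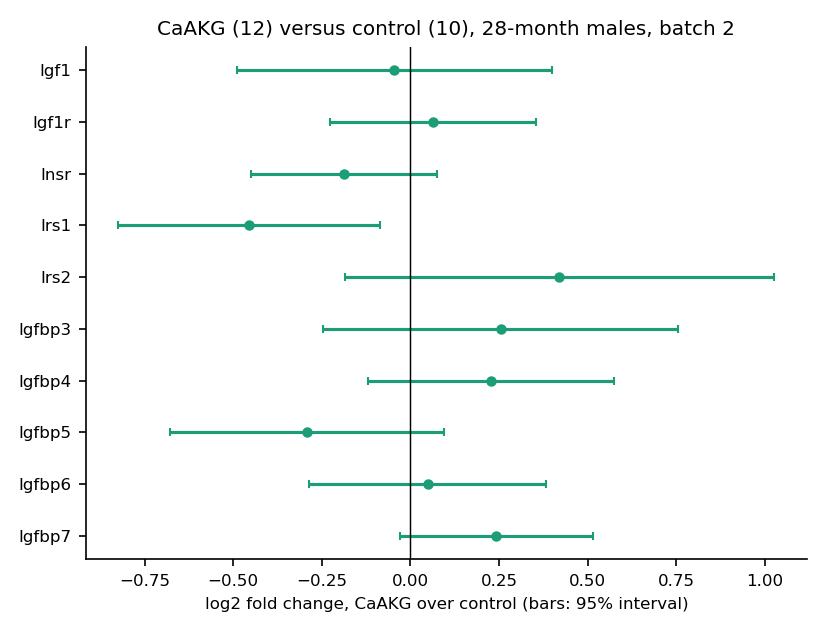
Log2 fold change of CaAKG over control feed in 28-month males of batch 2 (horizontal axis, bars are 95% intervals) for the 10 genes. Only the interval of Irs1 (-0.82 to -0.09) lies off 0, and its adjusted p over all genes is 0.61.

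The 2 batches of 28-month control mice differed in Insr. Females of batch 2 measured 80.7, 102 and 162 CPM, against 48.5, 64.1 and 100.6 CPM in batch 1, and Insr was 1.59-fold higher (log2 0.67, SE 0.18, adjusted p = 0.0055), where 6.75% of all genes were higher and 13.0% lower. With skin and marrow libraries left out, 3 of the 6 in batch 1, the log2 fold change was 0.41 (adjusted p = 0.212). Males of batch 2 measured 99.7, 114 and 132 CPM, all above the 41.7, 63.9, 82.6, 81.5 and 82.4 CPM of batch 1, a 1.62-fold higher level (log2 0.70, SE 0.18, adjusted p = 0.0298), where 0.818% of all genes were higher and 0.198% lower. That call was lost without 28-month male replicate 11 or 12 of batch 1 or replicate 2 of batch 2 (adjusted p 0.0534 to 0.214). Igf1r also separated the male batches, with 16.4, 17.5 and 20.0 CPM in batch 2 and 9.44 to 12.2 CPM in batch 1, and missed the threshold (log2 0.69, SE 0.20, adjusted p = 0.0582). Irs2 was lower in batch 2 in females (log2 -0.96, adjusted p = 0.079) and higher in males (0.74, adjusted p = 0.413). Without skin and marrow libraries the female Irs2 difference passed (-1.29, adjusted p = 0.0424). Irs1 in males (0.82, adjusted p = 0.079) passed with DESeq2 (adjusted p = 0.018). Igfbp5 was higher in batch 2 in females (0.64, adjusted p = 0.0699) and males (0.62, adjusted p = 0.238), and the male difference passed with limma-voom (adjusted p = 0.0109). The length trend moved with batch, with medians of 0.429 in males and 0.425 in females of batch 2, against -0.018 and -0.008 in batch 1, and under the length and GC offsets neither Insr difference passed (log2 0.39 and adjusted p = 0.438 in males, 0.27 and adjusted p = 0.23 in females).

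Of 70 other genes of the pathway that were tested, 27 were higher and 9 lower at 20 than at 6 months in females, and 35 were higher and 8 lower in males. Over all genes 18.2% were higher and 17.8% lower in females and 22.6% and 22% in males, and among genes with a transcript over 6 kb 62.0% and 68% were higher. Among the ligands, receptors and substrates that are not members (5 tested), Igf2r, which encodes the receptor that clears IGF2, was higher in both sexes, by a log2 difference of 1.53 (SE 0.23, adjusted p = 1.48e-07) in females and 1.44 in males, where it averaged 129 CPM against 47.8 CPM (adjusted p = 1.36e-09). Igf2 itself was higher too (log2 1.08, adjusted p = 6.65e-06, and 1.01, adjusted p = 1.98e-07). Of 16 adaptors and dampers of the receptors, 5 were higher and 2 lower in females and 6 higher and 2 lower in males. Among the lower ones in males was Socs3, a feedback inhibitor, which averaged 3.53 CPM against 20.4 CPM (log2 -2.53, adjusted p = 2.92e-06). Of 22 genes of the PI3K, AKT and mTOR branch, 12 were higher and 5 lower in females and 12 higher and 4 lower in males, with Deptor, an inhibitor of mTOR, at a mean of 32.7 CPM against 10.2 CPM in males (log2 1.67, adjusted p = 6.64e-13). Of 14 genes downstream of AKT, 6 were higher and 1 lower in females and 7 higher and 1 lower in males. Foxo1 and Foxo3, the transcription factors that AKT holds in the cytoplasm, were among the higher ones in both sexes (Foxo1 log2 1.43, adjusted p = 0.000114 in females, and 1.32, adjusted p = 9.08e-06 in males).

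Some pathway genes remained different at 28 months, where 15 of the 70 were higher and 4 lower than at 6 months in females and 13 were higher and 6 lower in males, against 9.91% higher and 9.04% lower of all genes in females and 6.76% and 9.38% in males. Ddit4, a stress-induced inhibitor of mTOR, averaged 30.4 CPM in 28-month females of batch 1, against 6.92 CPM at 6 months (log2 2.14, adjusted p = 0.00125), and 36.9 CPM in 28-month males of batch 1, against 6.99 CPM (log2 2.40, adjusted p = 8.41e-05). In batch 2, control mice of the same age averaged 9.47 CPM in females (log2 -1.68 against batch 1, adjusted p = 0.00156) and 14.0 CPM in males (log2 -1.39, adjusted p = 0.0298), so the high level was that of batch 1. Fbxo32, a muscle atrophy ubiquitin ligase that FOXO factors induce, averaged 413 CPM against 202 CPM in females (log2 1.03, adjusted p = 0.00235) and 290.0 CPM against 182 CPM in males (log2 0.67, adjusted p = 0.0283). Of 5 genes tied to growth hormone signalling, 3 were higher in females and 1, Cish, lower in males. Of the 8 proteases of binding proteins and their inhibitors, 0 passed at 28 months in either sex, and at 20 months 1 was higher in females and 4 in males, among them Adam9 in both sexes. With CaAKG 0 of the 70 passed.

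Across the 77 replicates the likeness of the 10 genes to each other is given here as Spearman correlations of log2 CPM with no test. Igf1r and Insr were the closest pair (0.868, and 0.486 for deviations from group means), and Insr lay near Irs2 (0.711, and 0.485 within groups). Insr and Igfbp5 had 0.673 across replicates and -0.0418 within groups, a likeness between groups and not within them. Igf1 lay nearest to Igfbp4 (0.572, and 0.724 within groups) and Igfbp7 (0.499, and 0.54 within groups). Igfbp6 ran opposite to Insr (-0.598, and -0.524 within groups). Within groups Igf1 and Insr also ran opposite (-0.415). Of the 12981 genes with a mean of at least 1 CPM, the nearest are given for 8 of the 10 genes. Those nearest to Igf1r were Cpd (0.929) and Polr2a (0.919), and those nearest to Irs2 were Otud1 (0.869) and Fzd7 (0.839). Nearest to Igf1 were Lpar1 (0.796) and Fads1 (0.786), to Irs1 Nuak1 (0.82) and Lrrcc1 (0.741), to Igfbp5 Sh3pxd2a (0.854) and Dnmt3a (0.845), and to Igfbp6 Plac9a (0.831) and S100a6 (0.789). Nearest to Igfbp3 were Rtn3 (0.755) and Cdc42ep4 (0.754), and to Igfbp7 Itm2c (0.801) and Gnai2 (0.748).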

How the data were processed

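RNA of mouse soleus was sequenced as paired reads on an Illumina NovaSeq instrument, per the labels' protocols. Per the submitters' processing notes, FastQC, STAR 2.7.11b and RSEM 1.3.3 were used with build mm10, and the table the authors deposited holds RSEM expected counts per gene. The sources used here do not give the annotation release or strand setting, so reads of overlapping or antisense genes may be split. Of the 133 columns, 78 match a sample label and 55 were not used. Counts were rounded to whole numbers, as 8.99% were not whole. Symbols matched 35298 IDs and GENCODE M21 positions 35338.

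Depth was 19500000 to 81600000 counts per library (median 35200000). Groups follow the labels, and library names carry separate animal tags except for 2 libraries that were summed. Values were tested with edgeR 4.0.16 in R 4.3.3 (quasi-likelihood, TMM factors, filterByExpr with a minimum count of 10 and a total of 15, 11 group means over 77 replicates), with Benjamini-Hochberg adjustment over 18218 genes and a threshold of 0.05. CPM are TMM-scaled. limma 3.58.1 and DESeq2 1.42.0 served as alternatives, beside other factors and filters, left-out libraries, a replicate block, and offsets for transcript length and GC content (splines with 5 degrees of freedom). The fits were tested on simulated data. The members and the gene lists were chosen with earlier results of these data known, and the length classes after the length trend was seen. Named genes are the 10 members, up to 4 called genes per pathway list by adjusted p, and the 2 nearest genes by Spearman correlation (pseudocount 0.5). Some genes that this rule names are not reported here. Same-numbered replicates were checked for pairing. Per comparison their lowest correlation of deviations lay between -0.29 and 0.061 and their highest between 0.072 and 0.319. Over 0.1 were 3 of 4 pairs at 20 against 6 months in females and 4 of 10 with CaAKG. As the library names carry separate animal tags, the numbers were not taken to pair the mice, and a replicate block served as an alternative.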

Additional observations from a re-analysis of the deposited data

Results flagged for a closer look

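In 12 of 100 tests of a gene in a group of 4 to 10 replicates, 1 value lay apart from the rest by Dixon's criterion, which chance meets in about 1 in 20 groups. 3 of them were libraries whose sex transcripts went against their labels. Insr measured 79.3 CPM in 6-month male replicate 3, against 48.2 to 59.3 CPM in the other males of 6 months. Insr measured 68.3 CPM in 12-month male replicate 3, against 32.2 to 41.6 CPM in the others. Igfbp4 measured 91.4 CPM in 6-month female replicate 3, against 43.6 to 49.6 CPM in the others.

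Igfbp3 stood apart at 50.8 CPM in 12-month female replicate 5, a library with 3389 CPM of keratinocyte markers, where the others had 3.24 to 12.0 CPM. It also stood apart at 35.1 CPM in 28-month female replicate 7 of batch 2, where the others had 9.42 to 15.2 CPM and the keratinocyte markers of that library summed to 3.92 CPM. The same library held the Insr value of 161.5 CPM, against 80.7 to 108 CPM in the others.

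Irs2 measured 245 CPM in 20-month male replicate 5 and 58.2 to 149.9 CPM in the others. Igfbp4 measured 86.5 CPM in 20-month male replicate 6 and 56.7 to 70.7 CPM in the others. Igfbp5 measured 41.3 CPM in 28-month female replicate 9 of batch 1 and 161 to 226 CPM in the others. Igfbp6 measured 34.6 CPM in 12-month female replicate 2 and 76.3 to 101 CPM in the others. Igfbp7 measured 38.4 CPM in 28-month female replicate 13 of batch 1 and 79.7 to 97.6 CPM in the others, and 99.4 CPM in 20-month male replicate 3 and 62.7 to 80.5 CPM in the others.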

How the results depend on the processing

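Of 25 calls among the 10 genes, 25 held with DESeq2, 24 with RLE factors, 22 without a filter, 25 with a minimum count of 50, 25 without the mitochondrial genome, 24 with limma-voom, 22 without both sets of doubted libraries, 21 when only the compared groups were fitted, and 6 with the length and GC offsets. 13 held without each library in turn, and none of the 25 changed direction there. With the offsets, 1 gene passed at 20 against 6 months in females, 4 in males, 1 at 28 against 6 months in females, 0 at 12 against 6 months in males, 0 at 28 against 20 months in males and 0 between the male batches. The 1 at 20 months in females was Igfbp7 (log2 0.77, adjusted p = 0.00282), not a call without offsets, and no female call there held. The 4 in males were Igf1r, Igfbp3 and Igfbp7, which held, and Irs1, lower (log2 -0.95) and not a call without offsets. The offsets also gave opposite signs for Igf1 (-0.08), Irs1 (-0.38) and Igfbp6 (0.02) at 20 against 6 months in females, Igf1r at 28 against 20 months in females (0.14), Insr at 28 against 6 months in males (-0.06), Irs1 at 28 against 20 months in males (0.10) and Igf1r between the female batches (-0.05). The cause was not tested.

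limma-voom called 1 gene at 28 against 6 months in females and 4 in males, 5 at 28 against 20 months in males, 2 between the sexes at 28 months and 4 between the male batches. Fitting only the compared groups called 0 at 28 against 6 months in females, 1 at 12 against 6 months in males and 3 between the male batches. At 28 against 6 months in males, 1 passed with the animal-tag libraries apart and 1 without a filter. Between the male batches 0 passed without a filter, 2 with a minimum count of 50, 3 with DESeq2, 3 with the sex-label libraries left out and 3 without both sets. Between the female batches 3 passed with the sex-label libraries left out, 3 without both sets and 2 with the skin and marrow libraries left out. With those last libraries left out 1 gene passed in the interaction at 28 months. Without the libraries against their sex label 1 gene passed between the sexes at 6 months, a comparison added after seeing the data.

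Leaving out each library in turn gave 0 to 1 genes at 12 against 6 months in females and 0 to 3 in males, 4 to 6 at 20 against 6 months in females and 5 to 7 in males, and 1 to 3 at 28 against 6 months in females and 0 to 1 in males. At 28 against 20 months it gave 1 to 3 in females and 2 to 4 in males, and between batches 1 to 4 in females and 0 to 1 in males. Igfbp6 at 28 against 20 months in females ranged from -0.25 to 0.01. With the replicate number as a block, which was not taken to pair the mice, 14 of 14 calls with a value held and 0 were gained, and Irs1 at 20 against 6 months in males was 0.04.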

Other observations

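Males and females of 6 and 12 months were compared after the libraries against their sex label had been seen, so this comparison was chosen with the data in view. At 6 months Igf1r was lower in males without those libraries (log2 -0.73, SE 0.17, edgeR adjusted p = 0.0258), where 126 of 18676 genes passed. With all libraries the log2 difference was -0.33 (adjusted p = 0.735) and 0 of 18218 genes passed. Igf1r measured 12.2 CPM in 6-month male replicate 3 and 3.69 to 7.57 CPM in the other males, and 5.67 CPM in 6-month female replicate 3 and 8.66 to 9.51 CPM in the other females. At 12 months neither Igf1r (log2 -0.38, adjusted p = 0.218) nor Irs1 (log2 -0.95, adjusted p = 0.0613) passed without those libraries. With all libraries they gave 0.05 (adjusted p = 0.965) and -0.48 (adjusted p = 0.505).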
